A study of Mus musculus with 11 samples.

Results

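The genes described here are 10 components of the Notch pathway, chosen by symbol: the receptors Notch1, Notch2 and Notch3, the ligands Dll1, Dll3 and Jag1, the effectors Hes1, Hes5 and Hey1, and the DNA-binding mediator Rbpj. Each matched a locus of its own among the 24138 loci of the expression table, so no value is shared with another symbol. The libraries were made from mouse cortex at E14.5, an embryonic stage of active neurogenesis, with 3 from controls and 2 from Chd8 conditional knockouts (cKO). Chd8 encodes a chromatin remodeller that is a high-confidence autism risk gene. The cKO libraries were labelled Chd8 c/c with Emx1-cre, a recombinase driver of the dorsal telencephalic lineage. Cells of other origin in the dissected cortex, such as interneurons, vessels and microglia, are not expected to lose the gene. Control 1 was labelled Chd8 c/+ and controls 2 and 3 were labelled Chd8 c/c, all without Cre, so loss of Chd8 and presence of Cre cannot be told apart. The labels do not say whether a library came from 1 embryo or from a pool, so p-values measure the spread between these libraries, which may be technical.

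In Notch signalling, a Delta or Jagged ligand on a cell binds a Notch receptor on its neighbour. The receptor is then cut by ADAM proteases and by gamma-secretase, and its intracellular part enters the nucleus, joins Rbpj and Mastermind proteins, and turns on Hes and Hey genes. These repressors hold down proneural genes such as Neurog2, which in turn drive ligand expression, so that in the embryonic cortex neighbouring progenitors either stay radial glia or move on towards neurons.

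Values are FPKM, a fragment count scaled by transcript length and library size, which allows levels to be set side by side between genes. A log2 change is the cKO value less the control value of log2(FPKM + 1), from limma fitted over all 12672 loci that averaged 1 FPKM or more, with Benjamini-Hochberg adjustment over those loci. That scale understates the change of low genes. All 10 Notch genes passed the filter. Chd8 itself was 31.5, 30.02 and 31.8 FPKM in controls 1, 2 and 3, and 19.3 and 15.1 in cKO 1 and 2. Both cKO values were below the lowest control. The log2 change of Chd8 was -0.83 (SE 0.15, adjusted p = 0.575 in limma), so limma did not call the targeted gene at an adjusted p under 0.05. The authors' deposited table marked Chd8 as significant, with a q-value of 0.00331. In bulk RNA, fewer cells of a type and less RNA per cell cannot be told apart, for these genes and for all below.

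No Notch gene passed the test between cKO and control, and 4 of the 10 separated the groups by level. Both cKO libraries lay below every control for Notch3, Dll1, Hes1 and Hey1, whose cKO means were 62.8% to 71.1% of the control means. No member had both cKO libraries above every control. Over all tested loci, 15.6% had both cKO libraries below every control and 13.4% had both above. Notch1, Dll3 and Hes5 differed between the cKO libraries themselves: each was lowest of all 5 libraries in cKO 1 and within the control range in cKO 2. Notch2, Jag1 and Rbpj also overlapped between groups.

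At an adjusted p under 0.05, limma called 0 of the 10 members, against 0.0473% of all tested loci. Chd8 was not called either, so the lack of calls does not show that the members were unchanged. At an unadjusted p under 0.05 there were 3 members, all lower (Notch3, Hes1 and Hey1), where 4.37% of all loci were lower at that level. In the authors' deposited table no member was marked significant, with 4.21% of loci with a completed test marked, and the smallest q-value among the members was 0.0711, for Hey1. The median log2 change of the 10 members was -0.30, with 8 negative, beside a median of -0.03 over all tested loci, of which 53.1% were negative. Without control 2, the highest library for 8 members, the median was -0.05. The 4 members with both cKO libraries below every control were the same 4 without control 2, without control 3 or without cKO 1, where the share of all tested loci below every control was 19.7%, 19.4% and 34.5%. The 4 of 10 without cKO 1 is near that share. Without control 1 Notch2 joined them, where all loci gave 28.6%, and with cKO 1 as the single cKO library 8 members lay below every control, where all loci gave 22.0%.

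**Figure D1:**
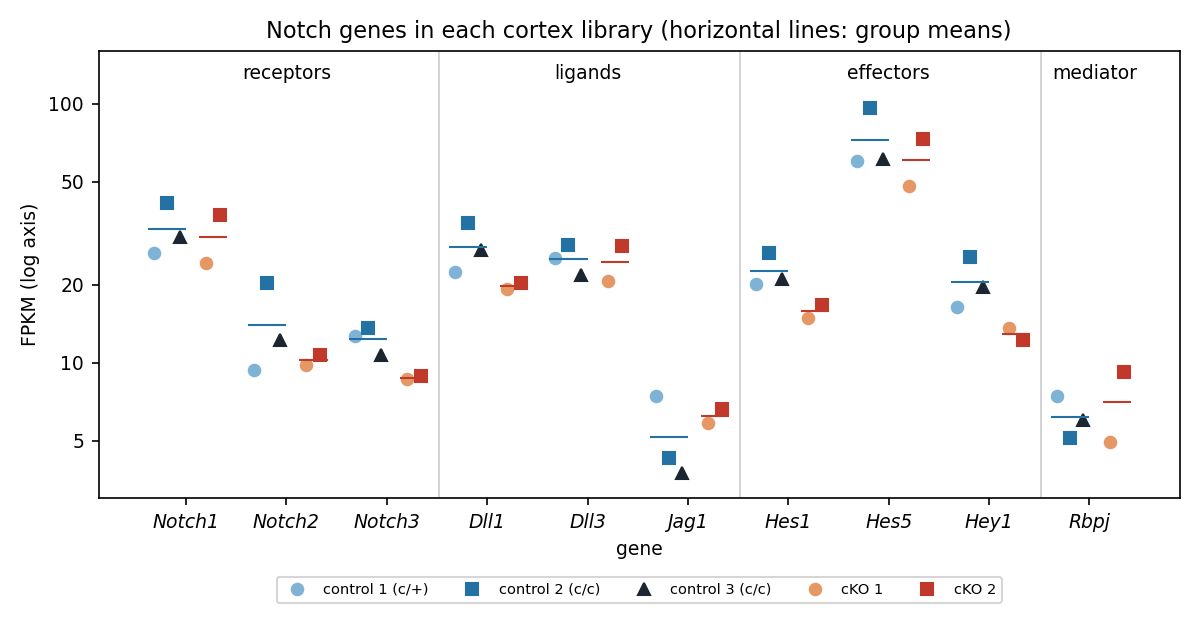
FPKM of the 10 Notch genes in each library on a log axis, with controls in blue or black, cKO in orange or red and short lines for group means. Both cKO points lie below all 3 control points for Notch3, Dll1, Hes1 and Hey1, and the cKO points of Notch1, Dll3, Hes5 and Rbpj are far apart.

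**Figure D2:**
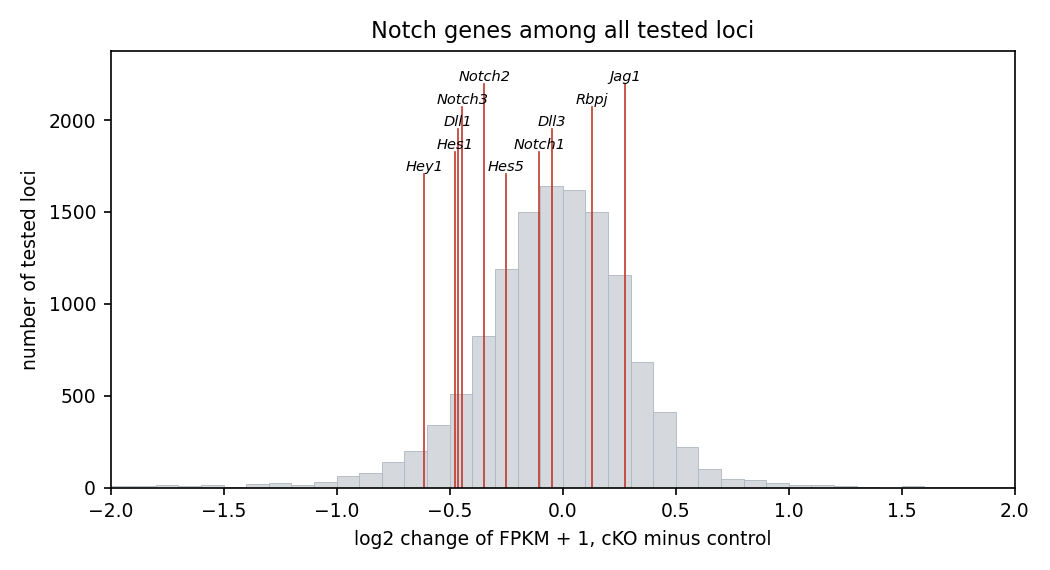
Number of tested loci (vertical axis) by log2 change, cKO minus control (horizontal axis), with a red line for each Notch gene; 137 loci lie outside the plotted range. Hey1 has the most negative change of the 10, and Jag1 and Rbpj lie to the right of 0.

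The receptors were ordered Notch1, Notch2 and Notch3 by control mean. Notch1 (chromosome 2, 26457902 to 26503822 in GRCm38), the main receptor of cortical progenitors, was 26.5, 41.5 and 30.7 FPKM in controls 1, 2 and 3, and 24.3 and 37.1 in cKO 1 and 2. The cKO 1 library lay below every control and cKO 2 was between controls 3 and 2, and the log2 change was -0.10 (SE 0.26), with a 95% interval of -0.77 to 0.56. This interval holds changes in both directions, so the data do not show that Notch1 was unaffected. Its sign also turned with single libraries: the change was 0.07 without control 2 and 0.19 without cKO 1.

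Notch2 (chromosome 3, 98013538 to 98150367), a receptor with the same core signalling mechanism, was 9.38, 20.2 and 12.3 FPKM in controls 1, 2 and 3, and 9.79 and 10.7 in cKO 1 and 2. Control 1 was the lowest of the 5 libraries and control 2 was the highest, 2.16 times control 1, so the groups overlapped (log2 change -0.35, SE 0.31). The change was -0.06 without control 2 and -0.58 without control 1. Notch3 (chromosome 17, 32120820 to 32166896), a receptor found in progenitors and in the mural cells of vessels, was 12.7, 13.6 and 10.7 FPKM in controls 1, 2 and 3, and 8.65 and 8.88 in cKO 1 and 2. The cKO libraries were close to each other and below the lowest control, at 71.1% of the control mean. The log2 change was -0.44 (SE 0.14, adjusted p = 0.575 in limma).

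Mural cells also express Notch3, and the summed level of their markers depended on 1 gene, Rgs5. The summed FPKM of 7 mural genes was 32.5 to 43.1 in controls and 43.5 to 50.2 in cKO, and without Rgs5, a choice made after seeing the data, it was 19.4 to 27.3 in controls and 22.7 to 24.1 in cKO, within the control range. Of the 6 tested mural genes, 4 had both cKO libraries above every control, and without Rgs5 3 of 5 did, where all tested loci gave 13.4%. The count thus did not depend on Rgs5 as the sum did. The median difference from the control mean was highest in control 1, at 0.20 on the log2(FPKM + 1) scale, against 0.16 and 0.09 in cKO 1 and 2. Rgs5, a pericyte gene, was 15.9, 11.4 and 13.1 in controls 1, 2 and 3 and 19.4 and 27.4 in cKO 1 and 2. Vtn, a secreted protein of pericytes, was 9.71 ± 2.36 (SD, n = 3) in controls against 8.75 ± 0.14 (SD, n = 2) in cKO. The summed FPKM of 10 endothelial genes was 71.6 to 86.9 in controls and 79.0 to 79.4 in cKO, within the control range. No gene of either list was at 0 in any library. The part of these cells in the Notch3 values was not tested.

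Among the ligands, both cKO libraries were below every control for Dll1, and the groups overlapped for Dll3 and Jag1. Dll1 (chromosome 17, 15367354 to 15376932), the Delta ligand that newly committed cells display to their neighbours, was 22.3, 34.7 and 27.1 FPKM in controls 1, 2 and 3, and 19.2 and 20.3 in cKO 1 and 2. Both cKO libraries lay below every control, at 70.4% of the control mean. The log2 change was -0.46 (SE 0.20, adjusted p = 0.575 in limma), and it was -0.30 without control 2.

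Dll3 (chromosome 7, 28293555 to 28301785), a divergent family member that does not activate receptors on neighbouring cells, was 25.2, 28.4 and 21.9 FPKM in controls 1, 2 and 3, and 20.8 and 28.3 in cKO 1 and 2. The cKO libraries spanned nearly the same range as the controls, at 97.3% of the control mean, with a log2 change of -0.05 (95% interval -0.52 to 0.43). Whether Dll1 and Dll3 differed in their change was not tested. Jag1 (chromosome 2, 137081451 to 137116520), a ligand of the Jagged class, was the lowest of the 10 genes, at 7.45, 4.29 and 3.75 FPKM in controls 1, 2 and 3, and 5.86 and 6.61 in cKO 1 and 2. Control 1 held the highest value and controls 2 and 3 the lowest, so the cKO libraries fell between controls (log2 change 0.28, SE 0.28). The change was 0.53 without control 1, and 0.19 and 0.11 without controls 2 and 3.

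Among the effectors, Hes1 and Hey1 had lower levels in both cKO libraries, and Hes5 differed between the cKO libraries. Hes1 (chromosome 16, 30065357 to 30067796), a basic helix-loop-helix repressor that keeps progenitors undifferentiated, was 20.1, 26.4 and 21.03 FPKM in controls 1, 2 and 3, and 14.9 and 16.7 in cKO 1 and 2. The highest cKO value was below the lowest control, and the cKO mean was 70.2% of the control mean. The log2 change was -0.48 (SE 0.16, adjusted p = 0.575 in limma), and the exact permutation test (two-sided, over libraries) gave p = 0.1, which is the lowest p that 10 splits into 3 and 2 can reach. For Notch3, Dll1 and Hey1 the same exact test gave p = 0.2.

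Hey1 (chromosome 3, 8663359 to 8667038), a related repressor that also acts in vessels, had the most negative change of the 10 genes. It was 16.5, 25.7 and 19.6 FPKM in controls 1, 2 and 3, and 13.6 and 12.3 in cKO 1 and 2, or 62.8% of the control mean. Hey1 was the gene among the 10 in which cKO 2 was below cKO 1. The log2 change was -0.61 (SE 0.21, adjusted p = 0.575 in limma), and 5.4% of all tested loci had a lower change. Under the alternatives tried, the change of Hey1 ran from -0.75 to -0.45.

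Hes5 (chromosome 4, 154960626 to 154962372), the effector most tied to Notch activity in radial glia, was the most abundant of the 10 genes. It was 60.1, 96.1 and 61.1 FPKM in controls 1, 2 and 3, and 48.1 and 72.9 in cKO 1 and 2. The cKO 1 library was the lowest of all and cKO 2 was above controls 1 and 3, so the groups overlapped (log2 change -0.25, SE 0.29, 95% interval -0.97 to 0.47). Without cKO 1 the change was 0.04.

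Hes5 is shown with its promoter because it carries the letters that Rbpj recognises and is the most abundant of the 10 genes. The 250 bases before its annotated start (RefSeq, GRCm38.p6, chr4:154960673-154960922, plus strand) are printed with TGGGAA, the core of the Rbpj motif, and its reverse complement TTCCCA in capitals.
Hes5: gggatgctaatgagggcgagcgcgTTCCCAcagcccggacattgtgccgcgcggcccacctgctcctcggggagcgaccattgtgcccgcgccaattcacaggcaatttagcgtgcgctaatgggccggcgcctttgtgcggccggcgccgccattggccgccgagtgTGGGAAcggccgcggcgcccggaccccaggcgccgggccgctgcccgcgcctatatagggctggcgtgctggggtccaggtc
The motif lies on the antisense strand 226 bases before the start used for this window and on the sense strand 82 bases before it. This start is not the gene start of 154960626 given above, and the window lies within the gene span. Windows of this kind were found by symbol for 8 of the 10 members, and not for Hes1 and Hey1. TGGGAA on either strand was in a window of 2 of the 8, Hes5 and Rbpj, and in 21.6% of all 32851 windows of the same length. The longer form GTGGGAA, which contains the shorter, was in 5.42% of all windows and in the Hes5 window at both places. The N-box CACNAG, the letters bound by Hes repressors, was in a window of Notch1, Notch2 and Notch3 and in 36.7% of all windows. These matches describe letters, and binding was not measured here.

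Rbpj (chromosome 5, 53555779 to 53657445), the DNA-binding protein through which all Notch receptors act, was 7.42, 5.12 and 5.99 FPKM in controls 1, 2 and 3, and 4.95 and 9.20 in cKO 1 and 2. The cKO libraries were the lowest and the highest of the 5, 1.86 times apart, and the log2 change was 0.13 (95% interval -0.56 to 0.83). Without cKO 2 the change was -0.26.

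**Figure D3:**
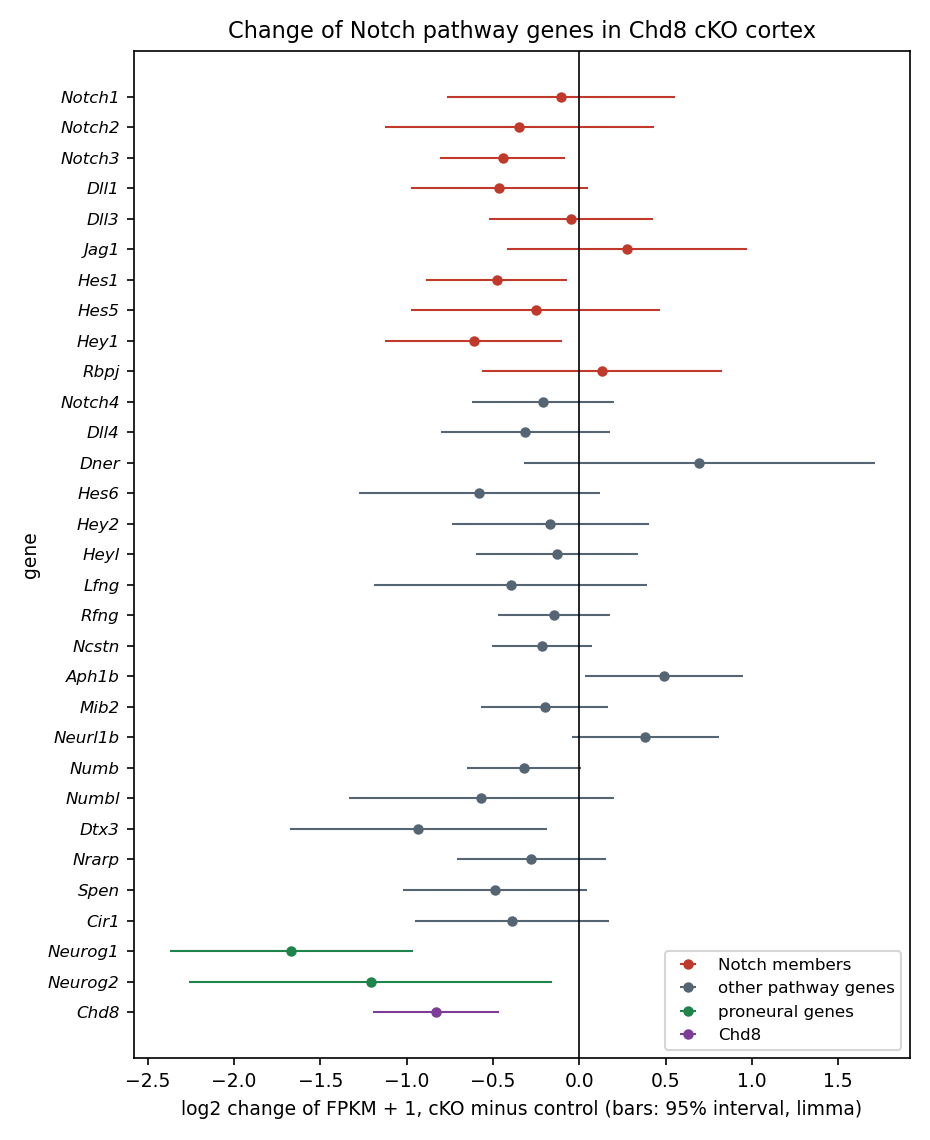
Log2 change of FPKM + 1 (horizontal axis), cKO minus control, for the 10 Notch genes, named pathway genes, proneural genes and Chd8, with 95% intervals from limma. The intervals of Notch3, Hes1 and Hey1 do not reach 0 before adjustment, those of the other 7 members do, and those of Neurog1, Neurog2 and Chd8 lie below 0.

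The members differed in level by over an order of magnitude and varied together in part. By control mean FPKM the order was Hes5 (72.4 ± 20.5, SD, n = 3), Notch1 (32.9 ± 7.70), Dll1 (28.1 ± 6.28), Dll3 (25.2 ± 3.27), Hes1 (22.5 ± 3.43), Hey1 (20.6 ± 4.67), Notch2 (13.96 ± 5.62), Notch3 (12.3 ± 1.47), Rbpj (6.17 ± 1.16) and Jag1 (5.16 ± 2.00). Control ranges of neighbours in this order were apart between Hes5 and Notch1 and between Notch3 and Rbpj, and overlapped for every other pair of neighbours. Control 2 was the highest library for 8 of the 10 members, and for 34.8% of all tested loci. In 9 of the 10, cKO 2 was above cKO 1. The median difference of the 10 genes from their control mean was -0.19, 0.28 and -0.10 in controls 1, 2 and 3 and -0.43 and -0.12 in cKO 1 and 2 on the log2(FPKM + 1) scale, so cKO 2 lay between controls 1 and 3, within the control range.

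The loci with the profile most like that of Notch1 over the 5 libraries were Slc12a7, a potassium-chloride cotransporter, Eif4ebp3, a translation repressor, and Reep4, a protein of the endoplasmic reticulum. Their Euclidean distances to Notch1, between profiles of log2(FPKM + 1) centred on their own means, were 0.10, 0.11 and 0.16, among 9514 single-symbol loci averaging 5 FPKM or more. Hes5 was at rank 18 from Notch1, at a distance of 0.23. From Hes5, the nearest loci were Reep4 (0.16), Rras, a small GTPase (0.22), and Notch1 (0.23). Hey1 was at rank 4751 from Notch1 and Rbpj at rank 5631. These ranks rest on 5 libraries and are a description.

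A wider list of 48 other pathway genes, grouped by role, held 44 that passed the filter. In limma 0 were called at an adjusted p under 0.05, and at an unadjusted p under 0.05 there was 1 lower, Dtx3, and 1 higher, Aph1b, where 4.37% of all loci were lower and 3.08% higher at that level. The median log2 change was -0.13, with 31 negative and 13 positive, beside 53.1% negative over all loci. Both cKO libraries were below every control for 12 and above for 2 of the 44, where all loci gave 15.6% and 13.4%. The authors' deposited table marked 3 of the 48 significant, Hes6 and Dtx3 as lower and Dner as higher, where 4.21% of loci with a completed test were marked.

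Hes6, a helix-loop-helix protein that counters Hes1 and promotes differentiation, was 94.9, 173 and 119 FPKM in controls 1, 2 and 3, and 92.4 and 75.3 in cKO 1 and 2. Both cKO libraries were below every control, cKO 1 by a margin of under 3 FPKM, and the log2 change was -0.58 (SE 0.28, adjusted p = 0.575 in limma). In the authors' deposited table its log2 fold change was -0.62, with a q-value of 0.0298. The other Hes and Hey genes were low: Hey2 was 2.21 ± 0.55 (SD, n = 3) against 1.85 ± 0.41 (SD, n = 2), Heyl was 1.75 ± 0.21 against 1.51 ± 0.07, and Hes2 was listed at 0 in every library.

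Among other ligands and receptors, Dner, a Delta-like neuronal surface protein, was 98.3, 36.9 and 66.7 FPKM in controls 1, 2 and 3, and 95.1 and 109 in cKO 1 and 2. Control 1 was above cKO 1, so the groups overlapped, and control 2 was the lowest library (log2 change 0.69, SE 0.41). In the authors' deposited table its log2 fold change was 0.60 with a q-value of 0.0343. The vessel-associated genes Notch4 and Dll4 were 2.59 ± 0.17 (SD, n = 3) against 2.11 ± 0.10 (SD, n = 2), and 2.53 ± 0.50 against 1.83 ± 0.03, both with cKO below every control and neither past the test. Of the fringe enzymes, which modify receptor sugars and so tune ligand choice, Lfng was 18.8 ± 7.10 against 13.4 ± 0.78, and Rfng was 41.4 ± 1.98 against 37.5 ± 3.55, and both overlapped between groups.

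Of 8 tested genes of receptor cutting, 3 had both cKO libraries below every control and 1 had both above, with a median log2 change of 0.01. Of 9 genes of receptor trafficking and turnover, 3 had both below, with a median of -0.24. Over all tested loci, 15.6% had both cKO libraries below every control and 13.4% had both above. Dtx3, of the Deltex family of ubiquitin ligases, was 113, 111 and 104 FPKM in controls 1, 2 and 3, and 79.99 and 39.97 in cKO 1 and 2. The controls were within 1.09-fold of each other and the cKO libraries were 2.00-fold apart, both below every control (log2 change -0.93, SE 0.30, adjusted p = 0.575 in limma). In the authors' deposited table its log2 fold change was -0.86 with a q-value of 0.00331. Numb, an inhibitor of Notch receptors, was 8.26, 8.04 and 7.22 in controls 1, 2 and 3 and 6.30 and 5.86 in cKO 1 and 2, below every control, and its relative Numbl, at 49.7 to 73.2 in controls against 51.04 and 28.4 in cKO 1 and 2, overlapped between groups. Aph1b, a gamma-secretase subunit, was 7.70, 10.1 and 10.96 in controls 1, 2 and 3 and 12.7 and 14.8 in cKO 1 and 2, above every control (log2 change 0.49, SE 0.18, adjusted p = 0.575 in limma). Ncstn, another subunit of that protease, was 42.04 ± 1.49 (SD, n = 3) against 36.1 ± 0.34 (SD, n = 2). Neurl1b, a ubiquitin ligase of ligands, was 5.15 ± 0.16 in controls against 7.10 ± 1.64 in cKO, above every control, and Mib2, another such ligase, was 20.3 ± 1.43 in controls against 17.6 ± 2.67 in cKO.

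Of the 9 genes of the nuclear complex described here, 0 passed limma at an adjusted or an unadjusted p under 0.05. A negative log2 change was found for 7, and 2, the corepressor genes Spen and Cir1, had both cKO libraries below every control, a share near the 15.6% of all loci. Spen, which recruits corepressors to Rbpj, was 23.99 ± 2.53 (SD, n = 3) against 17.1 ± 5.22 (SD, n = 2), and Cir1, a further corepressor, was 2.02 ± 0.28 against 1.32 ± 0.50. Nrarp, a Notch target and feedback inhibitor chosen here after its values were seen, was 32.7, 43.7 and 34.4 in controls 1, 2 and 3 and 27.98 and 32.2 in cKO 1 and 2, below every control.

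Neurog1 and Neurog2, proneural genes that Hes factors repress, had lower levels in both cKO libraries. Neurog2, the main proneural factor of the dorsal cortex, was 67.4, 166 and 109 FPKM in controls 1, 2 and 3, and 58.3 and 35.8 in cKO 1 and 2, and Neurog1 was 7.56, 13.996 and 8.69 against 2.80 and 2.01. Both lay below every control (log2 change -1.21 and -1.67, adjusted p = 0.575 in limma for each). The authors' deposited table marked both as significant, with log2 fold changes of -1.28 for Neurog2 and -2.07 for Neurog1 and a q-value of 0.00331 for each. Atoh1 was under the filter and listed at 0 in 3 of the 5 libraries.

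Markers of cell types also differed in level between the libraries. Of 6 intermediate progenitor genes, all 6 had a negative log2 change, and their summed FPKM was 250 to 635 in controls and 216 to 258 in cKO, highest in control 2, where 8 of the 10 Notch genes were highest too. The radial glial and endothelial sums were also highest in control 2. Both cKO libraries were below every control for 2 of the 6, where all tested loci gave 15.6%. Insm1 of that list was 75.8, 139 and 80.1 in controls 1, 2 and 3 and 85.8 and 70.8 in cKO 1 and 2, so the groups overlapped, and Gadd45g was 60.0, 153 and 91.3 in controls 1, 2 and 3 and 51.2 and 43.03 in cKO 1 and 2. Of 10 radial glial genes 7 had a negative change, with sums of 1497 to 1944 in controls and 1490 to 1511 in cKO: Vim was 630.5 ± 183 (SD, n = 3) against 426 ± 25.7 (SD, n = 2), while Fabp7, often described as a Notch target, was 631 ± 37.1 against 748 ± 48.3. Of 12 ventral telencephalic genes all 12 had a positive change, with sums of 243 to 446 in controls and 537 to 626 in cKO. Both cKO libraries were above every control for 8 of the 12, where all tested loci gave 13.4%, and the rest overlapped between groups. All 10 microglial genes had a positive change, with sums of 30.5 to 46.96 in controls and 87.0 to 93.8 in cKO. Aif1 of that list, at means of 0.92 in controls and 2.03 in cKO, passed the filter through the cKO libraries. The 10 neuronal genes split evenly by sign, with sums of 2533 to 2582 in controls and 2301 to 2916 in cKO. The 7 hem and choroid plexus genes summed to 7.43 to 10.01 in controls and 2.14 to 5.02 in cKO, with Folr1 at 0 in both cKO libraries. Of the 4 that passed the filter, Ttr and Lmx1a did so through the controls, at means of 2.07 and 1.70 against 0.30 and 0.40 in cKO. The signs of these 4 are thus partly set by the filter and are not counted. Only Lmx1a of the 4 had both cKO libraries below every control, and the others overlapped between groups. The part of these cell types in the Notch values was not tested.

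**Figure D4:**
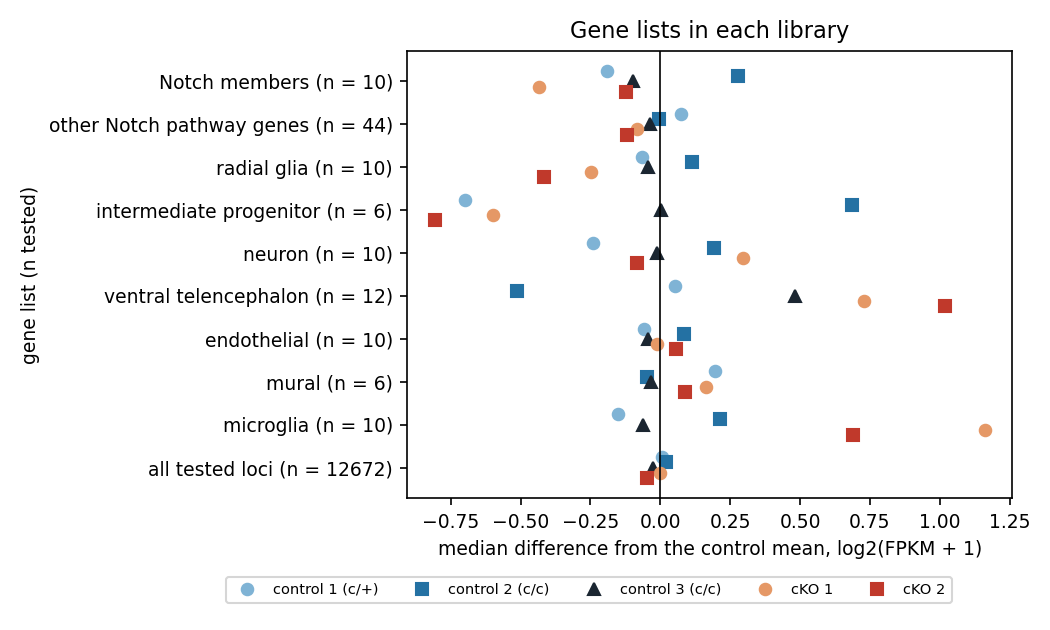
Median difference of each plotted gene list from its control mean (horizontal axis, log2(FPKM + 1)) in each library, with the number of tested genes beside each list. The hem and choroid plexus list is not plotted. For the Notch members, control 2 lies highest and cKO 1 lowest with cKO 2 among the controls. The intermediate progenitor, radial glial and endothelial lists also have control 2 highest, and the microglial and ventral lists have both cKO libraries highest.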

How the data were processed

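RNA-seq libraries were prepared from total cortical RNA with a kit from Illumina, per the labels' protocols. Per the submitters' processing notes, CASAVA, TopHat, Cufflinks, Bowtie2 and MACS and the build mm10 were used, with no versions or roles; annotation and strand setting: not given in the sources used here. A treatment field of the expression samples names an Eed cKO, while titles and genotypes name Chd8. The authors deposited FPKM per locus and library, their mean FPKM per group, and their comparison (log2 fold change, p-value and q-value, and a score for the test statistic), per the file headers; the FPKM unit itself was read from the values and the layout. FPKM summed to 418191 to 484296 per library. Depth is unknown. For loci under 0.05 FPKM in control 1 and in another library, the ratio of that library to control 1 was set against the commonest such ratio. Of these ratios, 6.93% to 12.6% per library lay within 1% of a small whole-number multiple or fraction of it. Reads were thus not recovered and no count test was made. ATAC-seq data of 6 further samples were not used here.

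Values were taken as log2(FPKM + 1) where loci averaged 1 FPKM or more and were fitted with R 4.3.3 and limma 3.58.1 using an intensity trend (3 residual and 2.49 prior degrees of freedom), after the script was tested on simulated data. Gene positions and promoters came from RefSeq tables of GRCm38.p6, matched by symbol. The members and lists were chosen with earlier results of these data known. Named were all members and proneural genes, pathway genes marked by limma or the authors' deposited table, up to 2 others per role with the smallest p, up to 2 of the highest genes of the marker lists set beside a result, and the 3 nearest profiles to Notch1 and Hes5. Of the lists, 2 genes (1 of the pathway list and 1 proneural) are not reported here and are left out of the counts.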

Additional observations from a re-analysis of the deposited data

How the results depend on the processing

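With another pseudocount (0.1), other filters, no intensity trend, 2 other scalings, the replicate block or any library left out, limma called 0 Notch members and 0 of the other pathway genes. Notch2, Notch3, Dll1, Hes1 and Hey1 kept negative changes and Jag1 a positive one under all of them. The median log2 change of the members was -0.434 to -0.047 over the libraries left out (-0.047 without control 2), and that of the other pathway genes -0.154 to -0.082 (-0.082 without cKO 2). The count of members below every control, an alternative added after seeing the data, was 4 to 8 over the libraries left out, where 19.4% to 34.5% of all loci were below. Signs turned for Notch1 (-0.40 to 0.19 over the libraries left out), Dll3 (-0.26 to 0.17, and 0.0092 with quantile normalization), Hes5 (-0.545 to 0.043) and Rbpj (-0.26 to 0.52); the cause was not tested. With 1 cKO library, that library is assumed to vary like the controls. The labels do not say whether the replicate number pairs these samples. Correlations of deviations for the same number were -0.07 and -0.11, so no pairing was seen. The deviations of the 2 cKO libraries mirror each other, so these are not separate checks and cannot settle whether samples were paired. With the replicate number as a block, control 3 is the only library of its number, so the changes equal those without control 3. The median of the members was then -0.38 and that of the other pathway genes -0.15, and 3 loci in all were called against 6 without the block. The number of libraries (5) and the unknown depth limit every value.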
